A study of Mus musculus with 6 samples.

Results

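Mrc1, Cd163, Clec10a, Mgl2, Msr1, Stab1, Clec7a and Marco encode 8 scavenger and lectin receptors of macrophages, and were taken by gene symbol from the 16775 genes in the expression tables. All 8 were listed in all 6 libraries, and 7 of them were among the 11898 genes with a CPM (count scaled to the size of the library) of at least 1 in at least 1 library. Marco stayed below that filter. The cells were bone-marrow-derived macrophages of C57BL/6 mice, grown out of marrow over 5 days in 10% FBS and 10 ng/ml of the macrophage growth factor M-CSF and then treated for 24 hours. Each of 5 libraries came from cells given IL4 together with 1 compound, which was fatostatin, betulin, 25-HC, PF429424 or 1,10-Phen, and the sixth came from cells given IL4 alone, the cytokine that drives alternative activation. As background, both fatostatin and betulin keep SREBP, a family of transcription factors for sterol and fatty acid synthesis, from being processed. The targets of 25-HC, PF429424 and 1,10-Phen, which may include the same processing, are not described here. The labels give no dose, do not expand the names 25-HC and 1,10-Phen, and do not say whether cells of several animals were pooled. All 6 cultures received IL4, so the values do not show which receptors IL4 induced.

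Scavenger receptors bind modified lipoproteins, polyanions, dying cells and microbes and take them into the macrophage. C-type lectin receptors bind sugars on glycoproteins and on microbial walls, in most cases with the help of calcium. Mrc1, Clec10a and Mgl2 are widely used as markers of mouse macrophages activated by IL4, and Cd163 and Stab1 are used as markers of scavenging, resident-type macrophages. In RNA of whole cultures, fewer cells of a type and less RNA per cell cannot be told apart.

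Each library held between 20181396 and 21169667 counts, and 3 counts, the floor used here, were worth between 0.137 and 0.161 CPM. With 1 library per treatment no difference below has a replicate check, no p-value is given, and each ratio compares 2 libraries, not 2 conditions. A gene is called higher or lower where its log2 ratio of scaled counts is at least 1 in size, which is a 2-fold difference, and its exact 95% counting interval excludes 0. These intervals cover counting error only. The macrophage identity of the cultures showed in all 8 macrophage markers on the list, which together made up between 7330 and 11743 CPM across the compound libraries and 10983 CPM with IL4 alone. The marker lists of B cells, T cells, mast cells and dendritic cells each summed to at most 5.08 CPM in any library. Other lists summed higher, with maxima of 375 CPM for neutrophil, 77.4 for monocyte, 74.8 for endothelial and 98.9 for stromal markers. The stromal maximum, with IL4 alone, was mostly Col1a1 and Col1a2, with 1027 and 1048 counts. Pdgfrb had 34, Col3a1 8 and Dcn 6 there. The endothelial maximum, with 1,10-Phen, was mostly Pecam1, with 1281 counts against 62 for Kdr.

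The stretches of DNA before 4 of the genes are shown because these genes separate in the results below: Mrc1, Cd163 and Stab1 were the members called lower in at least 2 compound libraries, and Clec7a stayed close to its IL4 level in all of them. Each stretch is the 250 bases before the start used in the RefSeq promoter table on GRCm38.p6, at chr2:14229164-14229413 on the plus strand for Mrc1, chr6:124304401-124304650 on the plus strand for Cd163, chr14:31168642-31168891 on the minus strand for Stab1 and chr6:129472786-129473035 on the minus strand for Clec7a. That start is the outer end of the annotated gene for Mrc1 and Clec7a, but the last 15 bases of the Cd163 window and the last 10 of the Stab1 window lie inside the gene's annotated span. Capitals mark matches, on either strand, to 1 of 5 motifs searched. They are GAGGAA for PU.1, the factor that defines the myeloid lineage, TTC and GAA with any 4 bases between them for STAT6, the factor that IL4 activates, TGCTGA for a MAF half-site, ACGTG for the hypoxia response and TCACNCCAC for SREBP.
Mrc1: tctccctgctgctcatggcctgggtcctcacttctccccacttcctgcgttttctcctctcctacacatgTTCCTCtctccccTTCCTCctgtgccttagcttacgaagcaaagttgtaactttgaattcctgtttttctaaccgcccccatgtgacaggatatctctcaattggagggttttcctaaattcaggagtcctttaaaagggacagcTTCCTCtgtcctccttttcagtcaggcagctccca
Cd163: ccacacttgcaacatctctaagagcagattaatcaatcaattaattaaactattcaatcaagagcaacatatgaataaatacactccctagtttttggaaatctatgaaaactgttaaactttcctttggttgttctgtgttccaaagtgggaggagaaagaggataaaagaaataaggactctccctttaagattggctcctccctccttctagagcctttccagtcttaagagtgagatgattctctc
Stab1: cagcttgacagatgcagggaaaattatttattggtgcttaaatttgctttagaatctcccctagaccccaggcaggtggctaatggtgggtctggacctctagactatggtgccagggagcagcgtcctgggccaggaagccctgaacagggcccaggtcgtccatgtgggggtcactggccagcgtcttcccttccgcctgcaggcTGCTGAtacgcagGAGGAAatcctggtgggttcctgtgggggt
Clec7a: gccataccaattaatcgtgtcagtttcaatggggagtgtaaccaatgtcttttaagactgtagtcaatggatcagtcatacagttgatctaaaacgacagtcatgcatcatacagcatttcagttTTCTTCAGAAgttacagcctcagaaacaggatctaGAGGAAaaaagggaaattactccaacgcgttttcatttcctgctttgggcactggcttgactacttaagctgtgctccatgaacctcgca

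Mrc1 held 3 matches to the PU.1 letters, at positions -180 to -175, -167 to -162 and -35 to -30 relative to the start. Stab1 held 1 PU.1 match and 1 MAF half-site, Clec7a held 1 PU.1 match and 1 STAT6 match, and Cd163 held no match to any of the 5 motifs. No matches overlapped in these 4 windows. Among the members with a window in the RefSeq table, 6 of 8, Mgl2 and Marco each held 1 PU.1 match, and 232 of the 250 bases of the Mgl2 window lie inside its annotated span. Of 32851 windows of the same length, 23.3% held the PU.1 letters, 16.1% the MAF half-site, 5.85% the STAT6 letters, 16.6% the hypoxia letters and 1.05% the SREBP letters. The last 2 motifs were in no member's window. A match is a description of the letters and does not show binding.

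Per transcript length, Clec7a had the highest level of the 8 genes in every library and Marco the lowest. Levels are given as deposited FPKM, a value per length of transcript and per size of library. The 8 genes summed to 1505 FPKM with fatostatin, 1196 with betulin, 998 with 25-HC, 1001 with PF429424 and 1074 with 1,10-Phen, against 1537 with IL4 alone. Clec7a made up 39.4% of that sum with fatostatin, 41.1% with betulin, 57.7% with 25-HC, 54.5% with PF429424 and 45.0% with 1,10-Phen, against 33.6% with IL4 alone. Mrc1, second in the IL4 library, made up 31.4%, 19.9%, 9.13%, 19.1% and 14.8% in the same order of compounds, against 26.7% with IL4 alone. Clec7a itself stayed between 483 and 593 FPKM, so its larger share with the compounds went with a lower sum of the other 7 genes.

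**Figure D1:**
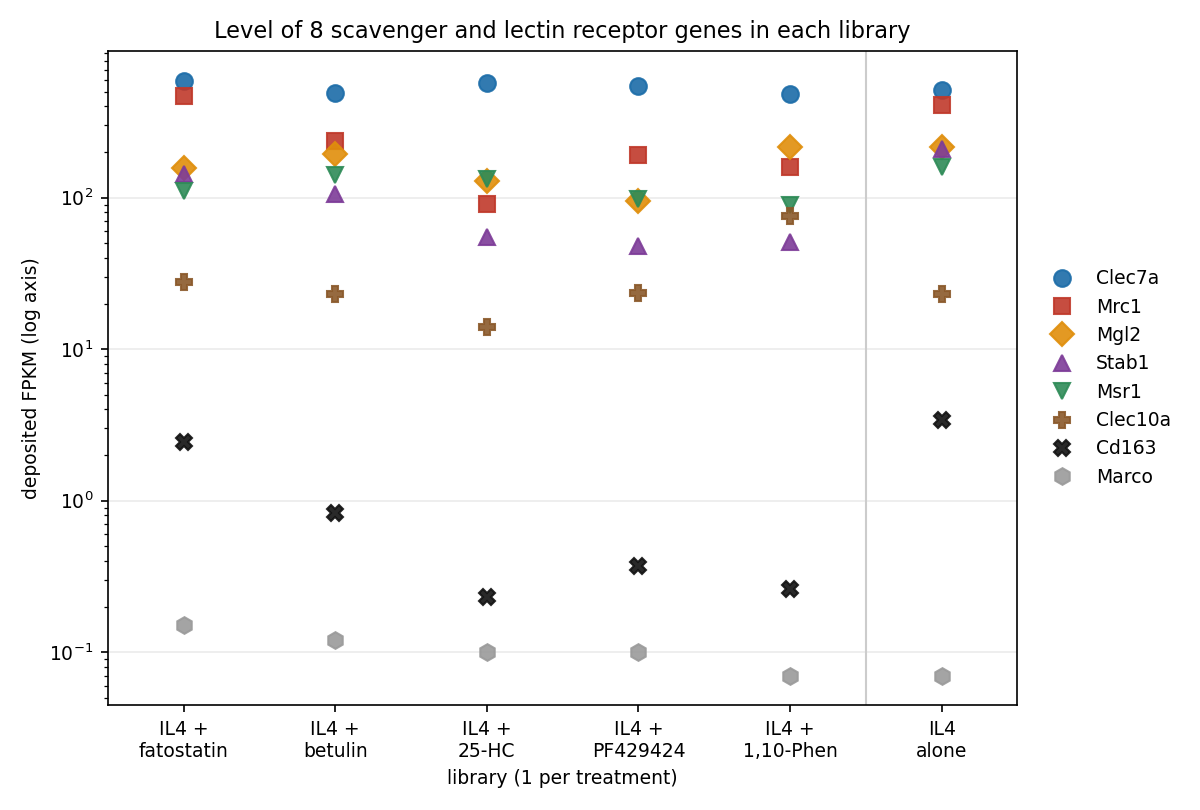
Deposited FPKM (log axis) of the 8 genes in each of the 6 libraries, 1 point per gene and library, with IL4 alone at the right. Clec7a lies between 483 and 593 FPKM in all 6 libraries, while Cd163 ranges from 0.23 to 3.41 FPKM and Marco never exceeds 0.15 FPKM.

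Counted against the IL4 library, none of the 7 members that passed the filter was called with fatostatin, where 0.874% of all genes were called higher and 1.06% lower. With betulin 1 member was called lower and none higher, beside 2.29% of all genes lower and 1.91% higher. With 25-HC 3 members were called lower and none higher, beside 5.69% of all genes lower and 3.27% higher. PF429424 also gave 3 members lower and none higher, beside 5.63% and 2.49% of all genes. With 1,10-Phen 3 members were called lower and 1 higher, beside 11.8% of all genes lower and 7.59% higher. The median log2 ratio of the 7 members was -0.40 with fatostatin, -0.15 with betulin, -0.71 with 25-HC, -0.97 with PF429424 and -0.66 with 1,10-Phen, while that of all 11898 genes lay between -0.02 and 0.02. In the same order 4, 6, 6, 5 and 4 of the 7 members lay below 0, beside 5672 to 6056 of all genes. The members were thus split in direction, and the median does not describe each of them. All 5 comparisons share the IL4 library, so a deviation of that library would appear in each of them.

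**Figure D2:**
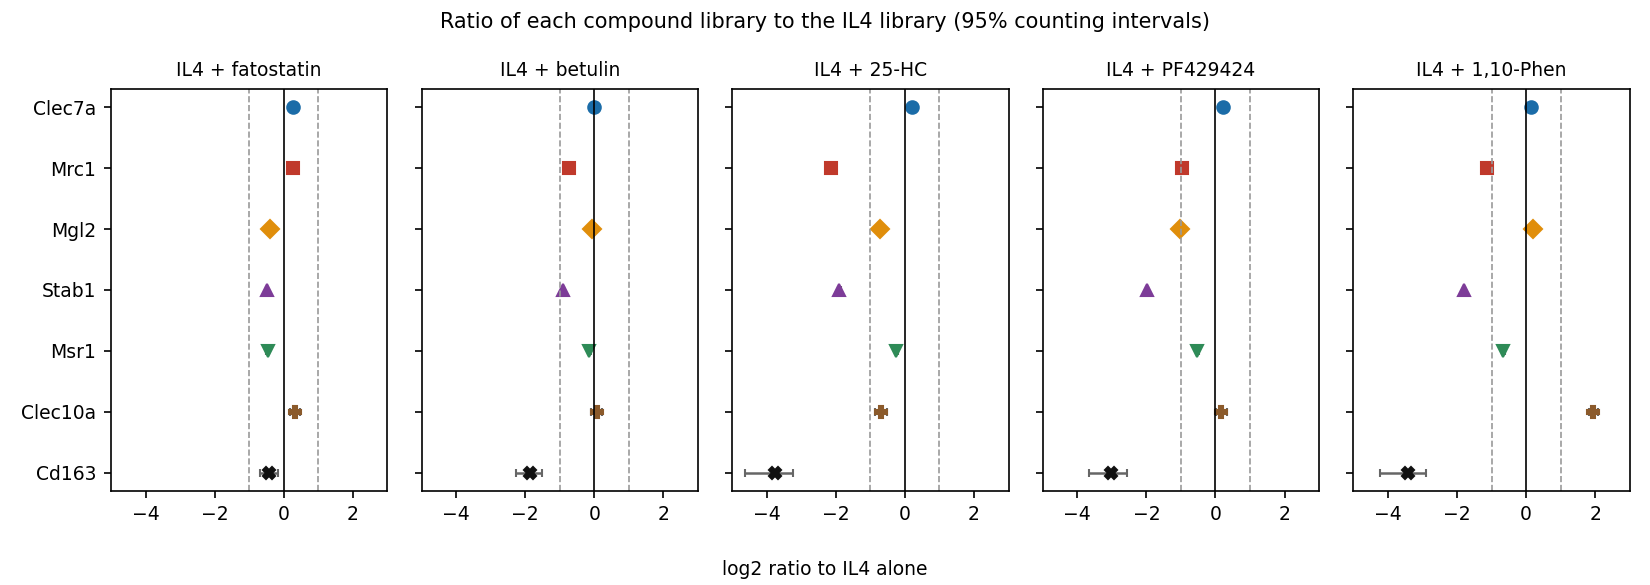
Log2 ratio of scaled counts, each compound library over IL4 alone, for the 7 members that passed the expression filter, with exact 95% counting intervals. Dashed lines mark the 2-fold limits, and Cd163 lies beyond the lower one in 4 panels and Clec10a beyond the upper one with 1,10-Phen.

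Mrc1 encodes the mannose receptor, an endocytic receptor for mannose-bearing glycoproteins and microbes and for collagen. The gene lies at chr2:14229414-14332023 on the plus strand and its coding transcript has 30 exons. Its level was 472 FPKM with fatostatin, 238 with betulin, 91.1 with 25-HC, 191 with PF429424 and 159 with 1,10-Phen, against 410 FPKM with IL4 alone. Only the fatostatin library stood above the IL4 library, and the 25-HC library was the lowest. The log2 ratio of scaled counts was -2.13 with 25-HC (interval -2.17 to -2.10), a 4.39-fold lower count, and -1.12 with 1,10-Phen (interval -1.15 to -1.10), both called lower. With PF429424 it was -0.97 (interval -0.99 to -0.94), just inside the 2-fold limit, and with library totals in place of the scaling it became -1.10 and was called. Betulin gave -0.72 and fatostatin 0.26. The microRNA gene Mir511 lies on the same strand inside Mrc1 and was not analysed here.

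Cd163 encodes the receptor that clears complexes of haemoglobin and haptoglobin. It lies at chr6:124304636-124330529 on the plus strand and was far less abundant than Mrc1. Expected counts were 215 with fatostatin, 77.7 with betulin, 19.8 with 25-HC, 32.5 with PF429424 and 22.4 with 1,10-Phen, against 290 with IL4 alone, or 2.44, 0.83, 0.23, 0.37 and 0.26 FPKM with the compounds against 3.41 FPKM with IL4 alone. Every compound library was below the IL4 library, and only the fatostatin library was within 2-fold of it. The log2 ratio was -1.86 with betulin (interval -2.26 to -1.52), -3.76 with 25-HC (interval -4.62 to -3.24), -3.02 with PF429424 (interval -3.67 to -2.57) and -3.42 with 1,10-Phen (interval -4.22 to -2.89). These 4 ratios correspond to counts 3.62-fold, 13.5-fold, 8.14-fold and 10.7-fold lower. The intervals of 25-HC, PF429424 and 1,10-Phen overlap, so their order was not resolved at this depth. With fatostatin the log2 ratio was -0.41 (interval -0.68 to -0.16). Across the 6 libraries the highest scaled count of Cd163 was 14.8 times the lowest, the widest range among the 7 members that passed the filter.

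Stab1 encodes stabilin-1, a large scavenger receptor that takes up the matrix protein SPARC and modified lipoproteins. It lies at chr14:31139017-31168651 on the minus strand, with 69 exons in its coding transcript. Its level was 143 FPKM with fatostatin, 106 with betulin, 54.99 with 25-HC, 48.2 with PF429424 and 50.7 with 1,10-Phen, against 209 FPKM with IL4 alone. All 5 compound libraries were below the IL4 library, and the last 3 formed a low group. Its log2 ratio was -1.89 with 25-HC (interval -1.93 to -1.86), -1.98 with PF429424 (interval -2.02 to -1.95) and -1.80 with 1,10-Phen (interval -1.84 to -1.77), all called lower, and -0.91 with betulin and -0.49 with fatostatin. Nt5dc2 on the opposite strand overlaps the end of Stab1 by 108 bases. Whether the counting used strand is not stated in the labels or headers, so reads in that overlap could count for either gene. Nt5dc2 had 1519 expected counts with 25-HC, 1474 with PF429424 and 728 with 1,10-Phen, against 2216 with IL4 alone, and Stab1 had 9402, 8184 and 8504 with those compounds, against 34154 with IL4 alone. The part of the overlap in the Stab1 ratios was not tested.

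Msr1 encodes the class A scavenger receptor, which takes up modified low-density lipoprotein, and Marco a related class A receptor with a collagen-like stalk. Msr1 at chr8:39543232-39642750 on the minus strand stood at 110 FPKM with fatostatin, 141 with betulin, 133 with 25-HC, 97.6 with PF429424 and 89.9 with 1,10-Phen, against 159 FPKM with IL4 alone. The IL4 library was the highest of the 6, yet no ratio reached the 2-fold limit. The log2 ratios were -0.47, -0.15, -0.24, -0.53 and -0.66 in the same order of compounds. Marco at chr1:120474538-120505024 on the minus strand had 6, 5, 4, 4 and 3 counts with the compounds and 3 counts with IL4 alone. A difference in Marco was not detectable at this depth, since even 6 counts with fatostatin against 3 with IL4 alone gave a log2 ratio of 0.68 with an interval of -1.21 to 3.64.

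Clec7a encodes dectin-1, the receptor for fungal beta-glucan that signals through Syk and Card9. It lies at chr6:129461591-129472785 on the minus strand. Its level was 593 FPKM with fatostatin, 491 with betulin, 575 with 25-HC, 545 with PF429424 and 483 with 1,10-Phen, against 516 FPKM with IL4 alone. The libraries of all 6 treatments lay within a factor of 1.2 of each other in scaled counts, the narrowest range of the 8 genes. The log2 ratio was 0.26 with fatostatin, -0.00 with betulin, 0.19 with 25-HC, 0.22 with PF429424 and 0.15 with 1,10-Phen (interval 0.12 to 0.17). The sign of the 1,10-Phen ratio turned with the scaling and was -0.09 with library totals, so no direction is given for it.

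Clec10a and Mgl2 encode the paired mouse galactose-type lectins, which bind galactose and N-acetylgalactosamine on glycoproteins. They are neighbours on the plus strand of chromosome 11, with Mgl2 at chr11:70130125-70137542 and Clec10a at chr11:70166623-70170836. The longest identical run of their coding sequences, from GENCODE vM21 transcripts on that assembly, is shown because reads inside it cannot be assigned to 1 of the pair. It has 183 bases, at coding positions 502 to 684 of Clec10a and 550 to 732 of Mgl2.
Clec10a and Mgl2 shared run: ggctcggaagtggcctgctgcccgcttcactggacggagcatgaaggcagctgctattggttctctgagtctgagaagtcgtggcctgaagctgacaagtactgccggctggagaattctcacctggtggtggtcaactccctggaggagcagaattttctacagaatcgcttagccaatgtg

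Over 914 aligned coding bases the pair was 88.7% identical, and 10.6% of the 50-base windows of the Clec10a transcript and 15.3% of those of Mgl2 occurred in the other. Neither gene had a whole-number count in any library, so the split of shared reads between them was estimated and is uncertain. Clec10a stood at 27.9 FPKM with fatostatin, 23.2 with betulin, 14.0 with 25-HC, 23.7 with PF429424 and 75.4 with 1,10-Phen, against 23.1 FPKM with IL4 alone. One library, that of 1,10-Phen, stood far above the rest. Its log2 ratio was 1.95 (interval 1.83 to 2.07), a 3.85-fold higher count and the only member called higher over IL4 in any compound library. The other compounds gave 0.33, 0.07, -0.68 and 0.17 for fatostatin, betulin, 25-HC and PF429424.

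Mgl2 stood at 156 FPKM with fatostatin, 195 with betulin, 128 with 25-HC, 95.1 with PF429424 and 215 with 1,10-Phen, against 216 FPKM with IL4 alone. Here the PF429424 library was the lowest, and the 1,10-Phen and IL4 libraries were nearly level. Its log2 ratio with PF429424 was -1.04 (interval -1.10 to -0.98), called lower by a narrow margin and with an interval that holds -1. With 25-HC it was -0.71, with fatostatin -0.40 and with betulin -0.07. With 1,10-Phen it was 0.21, or -0.03 with library totals, so that its sign turns with the scaling.

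Within a library, where scaling between libraries cancels, the Clec10a level was 17.9% of the Mgl2 level with fatostatin (95% counting interval 16.6 to 19.2), 11.8% with betulin (10.96 to 12.8), 10.9% with 25-HC (9.88 to 12.05), 24.9% with PF429424 (22.9 to 27.0) and 35.0% with 1,10-Phen (33.4 to 36.7), against 10.7% with IL4 alone (9.89 to 11.6). The intervals of the fatostatin, PF429424 and 1,10-Phen libraries lie above that of the IL4 library, and those of betulin and 25-HC overlap it. With PF429424 the higher percentage came with less Mgl2 and a Clec10a log2 ratio of 0.17, whereas with 1,10-Phen it came with more Clec10a.

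**Figure D3:**
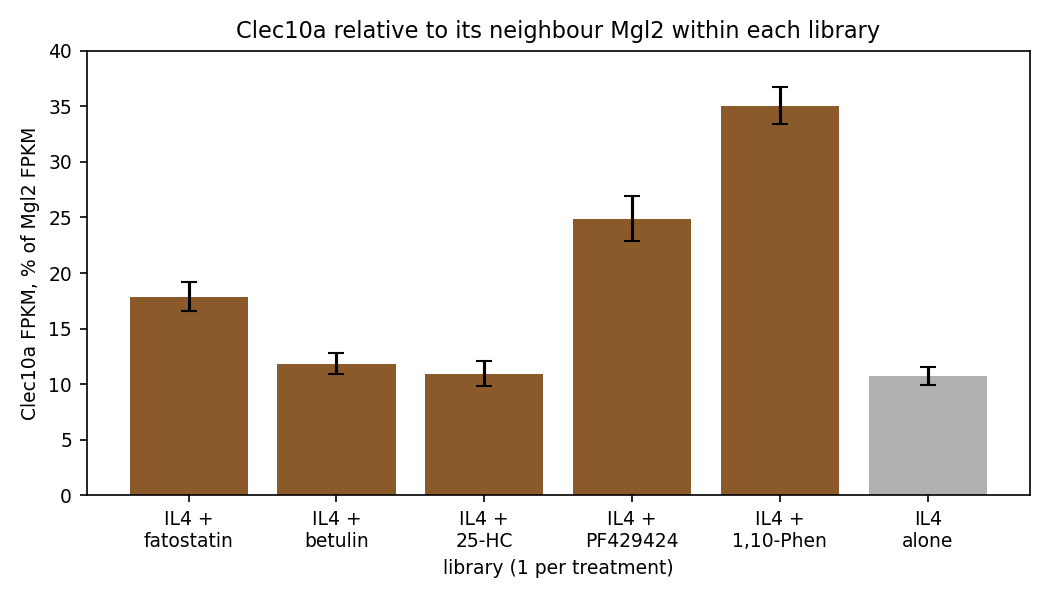
Clec10a FPKM as a percentage of Mgl2 FPKM in each library, with bars from 0 and exact 95% counting intervals. The percentage is 35.0% with 1,10-Phen and 24.9% with PF429424, against 10.7% with IL4 alone.

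**Figure D4:**
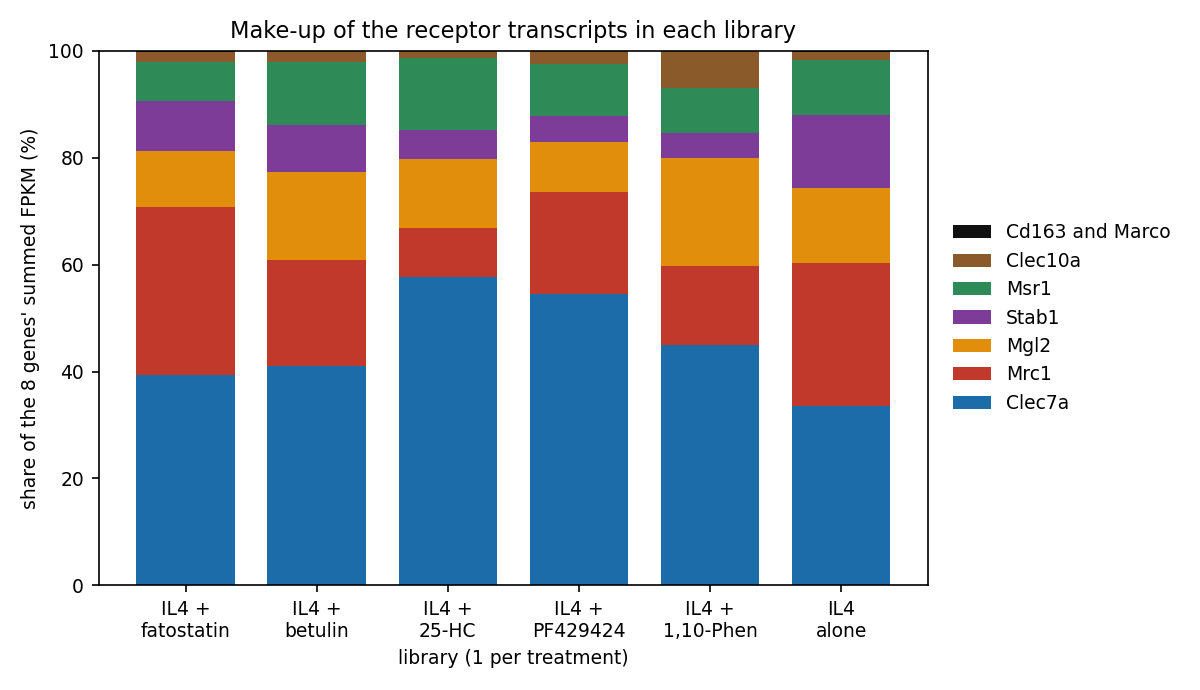
Share of each member in the summed FPKM of the 8 genes, as stacked bars of 100% per library with IL4 alone at the right. Clec7a takes 57.7% with 25-HC, against 33.6% with IL4 alone, and Clec10a takes 7.02% with 1,10-Phen, against 1.5% with IL4 alone.

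Direct ratios between compound libraries do not use the IL4 library. For 25-HC over PF429424, 1 of the 7 members was called lower, beside 1.81% of all genes. It was Mrc1, with 10360 counts with 25-HC against 21539 with PF429424 and a log2 ratio of -1.17 (interval -1.20 to -1.13). Cd163 gave -0.73 in that comparison with an interval of -1.67 to 0.06, and Stab1 gave 0.09, so the pair was not separated for Cd163 at this depth. For 1,10-Phen over PF429424, 2 members were called, both higher, beside 7.63% of all genes higher. Clec10a had 2329 counts with 1,10-Phen against 740 with PF429424, a log2 ratio of 1.77 (interval 1.66 to 1.90), and Mgl2 had 6643 against 3036, a log2 ratio of 1.25 (interval 1.19 to 1.31). Mrc1, Cd163 and Stab1 were at -0.16, -0.39 and 0.18.

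For betulin over fatostatin, 1 member was called lower, beside 1.86% of all genes. Cd163 had 77.7 counts with betulin against 215 with fatostatin, a log2 ratio of -1.44 (interval -1.86 to -1.09). On the log2(FPKM + 1) scale, which shrinks genes of low level, that ratio was -0.91 and was not called. Mrc1 lay next at -0.98, with 26795 counts with betulin against 52683 with fatostatin, and the other 5 members that passed the filter lay between -0.42 and 0.34.

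The profiles of the 7 members over the 6 libraries were compared by the root mean square difference of log2 CPM, each centred on its own mean. Msr1 and Clec7a were the closest pair at 0.31, followed by Mrc1 and Stab1 at 0.45. Cd163 and Clec10a were the farthest apart at 1.76. Among 10197 other genes with a CPM of at least 5 in at least 1 library, the nearest to Mrc1 was Siglec1, which encodes sialoadhesin, at 0.14, followed by Tfrc, the transferrin receptor, at 0.16. Siglec1 stood at 37.3 FPKM with fatostatin, 16.3 with betulin, 7.57 with 25-HC, 15.3 with PF429424 and 10.1 with 1,10-Phen, against 30.6 FPKM with IL4 alone, so that it was above the IL4 library only with fatostatin, as Mrc1 was. Nearest to Cd163 were Ms4a4a, a membrane protein of macrophages, at 0.22 and Rnase4, a secreted ribonuclease, at 0.25. Stab1 had Ephb6 at 0.14 and Csad at 0.18, Clec10a had Cd1d1, which presents lipid antigens, at 0.09, and Mgl2 had Smad3, a mediator of TGF-beta signals, at 0.08. Msr1 and Clec7a, which varied little, had Cenpl at 0.05 and Ssu72 at 0.04. These distances are descriptions over 6 libraries that share a scaling.

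The other lists are read against the share of all genes called in either direction, which was 1.93% with fatostatin, 4.19% with betulin, 8.96% with 25-HC, 8.12% with PF429424 and 19.4% with 1,10-Phen. Of 18 other scavenger receptors on the list, 12 passed the filter, and none was called with fatostatin or betulin, 1 was higher with 25-HC, 1 lower with PF429424, and 2 higher and 2 lower with 1,10-Phen. The called share of 8.33% with 25-HC and with PF429424 was near that of all genes, and with 1,10-Phen it was 33.3%. Cd36, the receptor for oxidised lipoproteins and fatty acids, had 1182 FPKM with fatostatin, 1436 with betulin, 1570 with 25-HC, 1327 with PF429424 and 2086 with 1,10-Phen, against 908 FPKM with IL4 alone. All 5 compound libraries lay above the IL4 library for Cd36, and only the 1,10-Phen ratio of 1.44 was called. Olr1, another oxidised lipoprotein receptor, was higher with 25-HC at 1.60 from 249 counts against 79 with IL4 alone. Cxcl16, a chemokine that is also a membrane receptor for oxidised lipids, was lower with PF429424 at -2.17 and with 1,10-Phen at -2.25. The medians of the 12 genes ran from -0.23 with 1,10-Phen to 0.12 with fatostatin.

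Of 33 other C-type lectin receptors, 18 passed the filter. With fatostatin 1 was higher and 1 lower, with betulin 1 was lower, with 25-HC 1 was higher and 6 lower, with PF429424 2 were higher and 4 lower, and with 1,10-Phen 3 were higher and 6 lower. The called share was 11.1% with fatostatin, 5.56% with betulin, 38.9% with 25-HC, 33.3% with PF429424 and 9 of 18 genes with 1,10-Phen. Clec4a1 encodes a lectin of the DCIR family. It had 49.8 FPKM with fatostatin, 28.2 with betulin, 13.1 with 25-HC, 13.6 with PF429424 and 68.7 with 1,10-Phen, against 78.2 FPKM with IL4 alone. It was called lower with betulin at -1.40, 25-HC at -2.54 and PF429424 at -2.38, and stood at 0.06 with 1,10-Phen. Cd163 and Stab1, in contrast, were low with 1,10-Phen as well as with 25-HC and PF429424. Clec4n, which encodes dectin-2, a receptor for fungal mannans, was lower with fatostatin at -1.19, 25-HC at -1.88 and PF429424 at -1.54 and higher with 1,10-Phen at 1.33. Clec5a, an activating receptor, was higher with 25-HC at 1.5 and PF429424 at 1.49. With 1,10-Phen the receptors Clec4e (Mincle) at 2.07 and Clec4d at 1.14 were higher, while Clec12a, an inhibitory receptor, at -2.13 was lower. Clec4b1 was lower with 25-HC at -1.44, PF429424 at -1.65 and 1,10-Phen at -3.56. Ly75 (DEC-205) was higher with fatostatin at 1.13 and PF429424 at 1.15. With 1,10-Phen Ly75 was lower at -3.51, from 4 counts against 74 with IL4 alone. The medians of these 18 genes ran from -0.86 with 1,10-Phen to -0.17 with fatostatin.

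**Figure D5:**
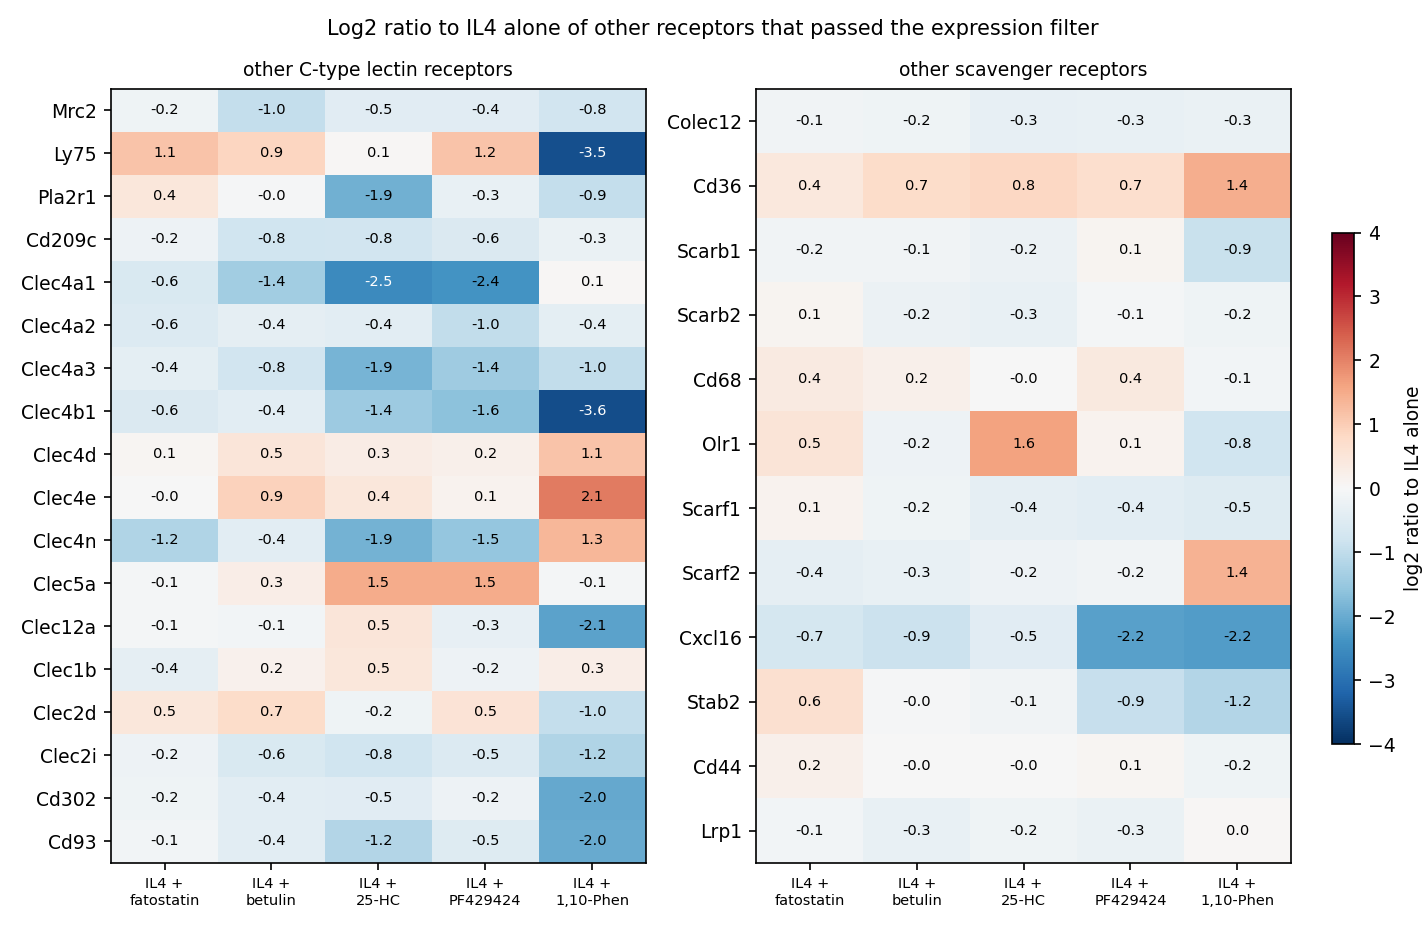
Log2 ratio of scaled counts to the IL4 library for the other C-type lectin receptors (left, 18 genes) and the other scavenger receptors (right, 12 genes) that passed the filter, red for higher and blue for lower. Clec4a1 and Clec4n are low with 25-HC and PF429424 and not with 1,10-Phen, where Clec4n is at 1.33.

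Of 8 sialic acid binding lectins 6 passed the filter, and 4 were lower with 1,10-Phen, 2 with 25-HC, 1 each with betulin and PF429424 and none with fatostatin. Siglec1 was lower with 25-HC at -1.97 and with 1,10-Phen at -1.36. Siglecf, an inhibitory siglec, was lower with 1,10-Phen at -3.71, from 11 counts against 191 with IL4 alone.

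Of 18 genes of dectin-1 signalling all passed the filter, and none was called with fatostatin or betulin, 2 with 25-HC, 1 with PF429424 and 3 with 1,10-Phen. The last 3 counts are 11.1%, 5.56% and 16.7% of the list, near the shares of all genes. Syk, the kinase that dectin-1 recruits, had log2 ratios between 0.03 and 0.45, and Card9, the adaptor below it, between -0.41 and -0.08. Among 11 genes of endocytosis and receptor shedding, 1 was called lower with betulin and none with the other 4 compounds, and Adam17, a sheddase, was at most at 0.52. Haem handling, which follows uptake through Cd163, gave 1 of 6 genes lower with betulin, 25-HC and PF429424 each and 3 of 6 higher with 1,10-Phen. Hmox1, which breaks down haem, had 787 FPKM with fatostatin, 861 with betulin, 743 with 25-HC, 593 with PF429424 and 5165 with 1,10-Phen, against 568 FPKM with IL4 alone. Slc40a1, the iron exporter ferroportin, had log2 ratios of -0.98, -1.22, -1.96, -2.52 and 1.0 in the same order of compounds.

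On the list of the IL4 receptor and macrophage transcription factors all 21 genes passed the filter. None was called with fatostatin, 1 was lower with betulin, 3 with 25-HC and 1 with PF429424, and with 1,10-Phen 3 were higher and 4 lower. Stat6 had log2 ratios between -0.07 and 0.38. Maf, a transcription factor of macrophages, had 54.6 FPKM with fatostatin, 20.2 with betulin, 8.06 with 25-HC, 13.7 with PF429424 and 27.4 with 1,10-Phen, against 52.9 FPKM with IL4 alone. It was called lower with betulin at -1.32, 25-HC at -2.68 and PF429424 at -1.81, and 1,10-Phen gave -0.71. Irf4, a factor of alternative activation, was lower with 25-HC at -1.11 and with 1,10-Phen at -3.31, and the receptor subunit Il4ra was higher with 1,10-Phen at 1.10.

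Of 8 alternative activation products 7 passed the filter. None was called with fatostatin, 3 were lower with betulin, 4 each with 25-HC and PF429424, and 3 were lower and 2 higher with 1,10-Phen. Retnla, a resistin-like secreted protein, was lower with betulin at -1.67, 25-HC at -4.94, PF429424 at -5.42 and 1,10-Phen at -4.32. The chemokine genes Ccl24 at -4.37 and Ccl22 at -4.33 were also lower with 1,10-Phen. Arg1, arginase, was higher with 1,10-Phen at 1.2 and Chil3, a chitinase-like protein, at 1.60. Members and products were thus split in that library. Cd163, Mrc1, Stab1, Retnla, Ccl24 and Ccl22 were lower, and Clec10a, Arg1 and Chil3 were higher.

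Markers of other cells moved with some of these differences. The 11 neutrophil markers summed to 375 CPM with fatostatin, 354 with betulin, 366 with 25-HC, 81.8 with PF429424 and 72.1 with 1,10-Phen, against 290 CPM with IL4 alone. Of the 10 that passed the filter, 8 each were lower with PF429424 and 1,10-Phen, beside 5.63% and 11.8% of all genes. With 25-HC 3 were higher and 1 lower, beside 3.27% and 5.69% of all genes. With betulin 1 was higher and 1 lower, beside 1.91% and 2.29%, and none was called with fatostatin. Csf3r was the lower one with betulin at -1.12 and with 25-HC at -1.56. It held most of the counts of the list with 1,10-Phen, 883, where it was at -0.85. Ly6g had 5 counts with fatostatin, 5 with betulin, 12 with 25-HC and 0 with PF429424 and 1,10-Phen, against 5 with IL4 alone, and did not pass the filter. The 4 monocyte markers summed to between 18.7 and 45.0 CPM in the compound libraries, against 77.4 CPM with IL4 alone. Stab1 is also a gene of sinusoidal endothelium. The 6 endothelial markers summed to between 16.2 CPM with PF429424 and 74.8 CPM with 1,10-Phen, against 34.3 CPM with IL4 alone. Stab1 itself had 1591 CPM with IL4 alone. Of the 4 endothelial markers that passed the filter, 2 were higher and 1 lower with 1,10-Phen. With betulin, 25-HC and PF429424 1 each was lower and none higher, and none was called with fatostatin. Pecam1 had log2 ratios of 0.52 with fatostatin, -1.15 with betulin, -1.91 with 25-HC, -1.92 with PF429424 and 1.43 with 1,10-Phen. The others that passed the filter did not follow it throughout. In the same order, Kdr had 0.23, 0.50, 0.71, 0.60 and -0.46, and Cdh5 had 0.64, -0.13, -0.48, 0.07 and 1.31. Stab2 had 0.63, -0.04, -0.14, -0.92 and -1.16. Pecam1 held most of the counts behind the 74.8 CPM with 1,10-Phen. Lyve1, another endothelial marker, did not pass the filter. It was at 0 in all 5 compound libraries and had 1 count with IL4 alone. The 6 stromal markers summed to between 34.2 and 97.8 CPM with the compounds, against 98.9 CPM with IL4 alone. Of the 8 macrophage markers, none was called with fatostatin or betulin, 2 were lower with 25-HC, 1 with PF429424 and 2 with 1,10-Phen, and none was higher. Mertk, a receptor for dying cells, was lower with 25-HC at -1.07, PF429424 at -1.10 and 1,10-Phen at -2.82. Adgre1 (F4/80) was lower with 25-HC at -1.26, and Fcgr1, an Fc receptor, with 1,10-Phen at -1.88. Csf1r, the M-CSF receptor, had log2 ratios between -1.0 and -0.40. The part of these shifts in the receptor differences was not tested.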

How the data were processed

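The macrophages gave 6 libraries, 1 for each treatment, made from 1 ug of total RNA each. An expected count per gene, taken as not scaled between libraries by the authors, is in the deposited tables, as Read Count per their headers. The headers do not state that these counts are expected ones or whether they were scaled. The term expected count was inferred because between 30.5% and 32.0% of a library's values are not whole numbers. FPKM values, scaled by the authors to the length of the transcript and the size of the library, stand beside them per the file headers. HISAT2, Bowtie2, RSEM 1.2.12 and DESeq2 are listed without roles, per the submitters' processing notes. Whether counting used strand is not stated there.

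Counts were rounded to whole numbers and scaled with TMM factors over all genes (edgeR 4.0.16, R 4.3.3). Log2 ratios use a prior count of 2, and intervals are exact Clopper-Pearson 95% intervals. The ratio and interval steps were tested on simulated counts with counting error only. That simulation holds no variation between cultures, so it cannot show how far such variation would move a ratio. The 8 members, 8 other gene lists and 9 marker lists were chosen with earlier results of these data known. In each list up to 4 genes per comparison could be named, those with the largest ratios at a CPM of 5 or more, as could the 3 nearest profiles of each member, and the text leaves some of them out. Ly6g, Lyve1, Syk, Card9, Stat6, Il4ra, Adam17, Adgre1, Mertk, Fcgr1 and Csf1r were named for their role, with their values seen. Of 186 list entries 176 were matched, and the others were not analysed here. The alternatives were size factors of DESeq2 1.42.0, unscaled library totals, genes kept without a filter or at a CPM of 5 or more, a prior count of 0.5 or 10, log2(FPKM + 1) and, added after seeing the data, TMM factors from the filtered genes. Positions and upstream windows are from RefSeq on GRCm38.p6. Python 3.11.15, numpy 2.4.6, pandas 2.3.3, SciPy 1.17.1 and matplotlib 3.10.9 were used for the other steps.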

Additional observations from a re-analysis of the deposited data

How the results depend on the processing

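Each comparison was recomputed under 8 alternatives, 1 of them, TMM factors from the filtered genes, chosen after seeing the data. Of these, 2 change only the filter and leave a member's ratio as it is. Under the other 6, 381 of 384 member ratios kept their call and no called member changed sign, while 76 moved beyond their counting interval, 34 of them with library totals and 36 on log2(FPKM + 1). Besides Mrc1 with PF429424, which was called at -1.10 with library totals and at -1.10 on log2(FPKM + 1), the exception was Cd163 in betulin over fatostatin, where log2(FPKM + 1) left 0 members called. Among uncalled ratios, Mgl2 and Clec7a with 1,10-Phen turned sign under library totals (-0.03 and -0.09) and log2(FPKM + 1), as did Clec7a for 25-HC over PF429424 (0.08 under both), and Marco, at 3 or 4 counts, went to 0 or turned sign in the same 2 comparisons. The Clec10a to Mgl2 percentage stayed within its counting interval in all 6 libraries when taken from counts.

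Counts over all genes stayed within 1.5 times in 54 of 64 recomputations. For fatostatin, 230 genes became 348 with no filter, 128 with a prior count of 10 and 70 on log2(FPKM + 1), of which 23 were higher and 47 lower, against 104 higher and 126 lower. On log2(FPKM + 1), which shrinks genes of low level, betulin gave 177, 25-HC 514, PF429424 492 (95 higher and 397 lower, against 296 and 670), 25-HC over PF429424 146 (93 higher and 53 lower, against 224 and 215), 1,10-Phen over PF429424 1203 (408 higher and 795 lower, against 908 and 1135) and betulin over fatostatin 104 (52 in each direction, against 139 higher and 221 lower). Betulin over fatostatin gave 225 with a prior count of 10. Library totals gave 216 higher and 871 lower with PF429424, 641 higher and 1940 lower with 1,10-Phen, against 903 and 1408, and 287 higher and 170 lower for 25-HC over PF429424. They shifted the median of all genes by -0.14 with PF429424 and -0.24 with 1,10-Phen. For 1,10-Phen log2(FPKM + 1) gave 399 higher and 1201 lower. No paired analysis was possible because each treatment has 1 library. Depth limits Cd163, with 19.8 to 32.5 counts in 3 libraries, and Marco.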
